A study of Mus musculus with 24 samples.

Results

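Aminoacyl-tRNA synthetases join each amino acid to its transfer RNA, the step that supplies protein synthesis with its building blocks. The expression of 34 of their genes was followed in mouse leg muscle after ligation of the femoral artery. Members were taken by symbol from a table of 24016 gene symbols, and where a symbol had several transcripts the 1 with the greatest mean was used. They comprised 20 genes for cytosolic enzymes and 14 genes, with names ending in 2, for mitochondrial enzymes. All 34 passed the minimum for testing, which required 6 or more of the 24 libraries to reach an RPKM of 1, and the member with the fewest reads in a library, Wars2, still had 24. RPKM is the number of reads per kilobase of transcript, set against the total reads of the library, so levels can be compared between genes.

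Poly(A) RNA was sequenced from C57BL/6 mice on day 7 after the artery of 1 hindlimb was tied. The 4 groups of 6 libraries were normoxic adductor muscle of control mice, ischemic gastrocnemius muscle of control mice, and the same muscles of mice labelled type 2 diabetic. Every mouse had the ligation, and the labels name no diet, drug or allele behind the diabetes and no age. Because the normoxic and the ischemic samples are different muscles, muscle identity and ischemia cannot be told apart. In whole muscle, fewer cells of a type and less RNA per cell cannot be told apart either. No label says that the libraries of a group came from separate animals, so p-values measure the spread between these libraries, which may in part be technical.

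Cytosolic and mitochondrial protein synthesis use separate sets of synthetases, all encoded in the nucleus. Gars and Kars are exceptions, since each encodes both the cytosolic and the mitochondrial enzyme, and mitochondria have no glutaminyl enzyme of their own but make that charged tRNA through Ears2 and an amidotransferase. In the cytosol 8 synthetases, encoded by Eprs, Iars, Lars, Mars, Qars, Rars, Kars and Dars, are held together with scaffold proteins in the multi-synthetase complex, and the others act outside it. When amino acids run short or the endoplasmic reticulum or mitochondria are under stress, the transcription factor ATF4 is made and binds C/EBP-ATF elements in target genes, among which cytosolic synthetase genes are well known.

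The promoters below are shown because 5 cytosolic members and none of the mitochondrial ones held the core letters of that element, TGATGNAA, on either strand between 250 bases before and 50 bases after the start of the gene. RefSeq promoters of build GRCm38.p6 matched 26 of the 34 members by gene ID. The others were Cars, Hars, Lars, Nars, Rars, Vars, Wars and Hars2. The letters were found in 5 of 13 cytosolic members (38.5%) and in 0 of 13 mitochondrial members, against 4.51% of 27025 genes with a promoter in the table (3.97% of all 32851 promoters of that length), and in 9 of 25 genes of a list of ATF4 targets without synthetases (36.0%). Asns, asparagine synthetase, is shown as the best known of those targets. Each sequence runs from 150 bases before to 30 bases after the start, 5′ to 3′ on the strand of the gene, and capitals mark the matches.
Gars: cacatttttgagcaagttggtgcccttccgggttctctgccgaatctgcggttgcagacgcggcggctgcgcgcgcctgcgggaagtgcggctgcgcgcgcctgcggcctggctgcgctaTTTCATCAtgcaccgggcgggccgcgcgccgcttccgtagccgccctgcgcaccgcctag
Aars: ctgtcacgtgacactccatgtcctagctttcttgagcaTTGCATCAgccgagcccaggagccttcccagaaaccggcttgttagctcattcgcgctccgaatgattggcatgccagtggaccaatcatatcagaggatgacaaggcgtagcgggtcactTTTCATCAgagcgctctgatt
Tars: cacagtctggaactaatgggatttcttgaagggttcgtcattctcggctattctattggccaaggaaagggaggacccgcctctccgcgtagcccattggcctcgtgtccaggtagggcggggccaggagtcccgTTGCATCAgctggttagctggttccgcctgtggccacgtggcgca
Yars: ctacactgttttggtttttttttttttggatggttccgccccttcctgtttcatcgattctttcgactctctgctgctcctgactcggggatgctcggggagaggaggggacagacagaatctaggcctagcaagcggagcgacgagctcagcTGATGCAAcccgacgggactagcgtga
Iars: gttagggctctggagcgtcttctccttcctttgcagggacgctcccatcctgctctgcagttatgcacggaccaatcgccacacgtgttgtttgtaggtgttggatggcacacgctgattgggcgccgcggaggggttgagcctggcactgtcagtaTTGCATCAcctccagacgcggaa
Asns: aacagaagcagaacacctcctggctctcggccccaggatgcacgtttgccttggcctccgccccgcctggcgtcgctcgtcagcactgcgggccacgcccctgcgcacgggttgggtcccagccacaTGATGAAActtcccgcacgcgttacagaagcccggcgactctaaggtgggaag
These stretches lie at chr6:55037851-55038030, + strand (Gars), chr8:111033692-111033871, + strand (Aars), chr15:11399629-11399808, - strand (Tars), chr4:129189753-129189932, + strand (Yars), chr13:49681980-49682159, + strand (Iars) and chr6:7693180-7693359, - strand (Asns). Counted from the start, the leftmost base of the match was at -30 in Gars, -15 in Tars, 4 in Yars, 8 in Iars and -23 in Asns. Aars held a pair of matches, at -112 and 10. A match of letters is a description of the window and was not tested as a binding site.

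Library totals in the deposited headers ran from 7.13 M to 15.6 M reads, and Acta1, the actin of skeletal muscle fibres, was at 6622 RPKM or more in every library. The libraries fell into 2 sets by the glycolytic enzyme gene Gapdh, which was at 677 to 1757 RPKM in 14 libraries (numbers 1 to 3 of the control mice and 1 to 4 of the diabetic mice, for each muscle) and at 0.365 to 13.7 RPKM in the other 10. No label explains the sets, so the counts, the medians and the differences of the members described at length are given within them as well. Summed RPKM of 11 macrophage markers was 62.1 to 405 in control adductor and 587 to 2332 in control gastrocnemius, that of 8 fibroblast markers 192 to 1062 and 1982 to 7001, that of 7 genes of regenerating muscle 98.8 to 711 and 1066 to 3863, and that of 10 skeletal muscle markers 51025 to 94764 and 15460 to 61622. In diabetic mice the macrophage sum was 106 to 172 in adductor and 762 to 2089 in gastrocnemius. No marker of these lists was at 0 in all 6 libraries of a group, and the part of other cells in the synthetase differences was not tested. Control gastrocnemius 3 and diabetic gastrocnemius 2 stood apart, with macrophage sums of 587 and 762 against 1363 to 2332 in the other 10 gastrocnemius libraries. Among the adductor libraries the regenerating muscle sum was 711 in control adductor 6 and 850 in diabetic adductor 6, against 51.1 to 496 in the others, and control adductor 2 had the highest macrophage and fibroblast sums, 405 and 1062. Most genes had higher RPKM in gastrocnemius: the median log2 difference of all 12382 genes tested was 0.66 in control and 0.55 in diabetic mice, and after scaling each library by the median of its ratios to the geometric mean library it was -0.02 and -0.04. Both scales are therefore given, and a member is read against the median of its scale.

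Over the 24 libraries the order of levels was led by Lars2, which stands apart and is described below. Among the others, mean levels ran from 43.4 RPKM for Kars, the lysyl enzyme of both compartments, to 1.14 RPKM for Wars2, the mitochondrial tryptophanyl enzyme. Kars was followed by Eprs at 36.8 RPKM, which carries the glutamyl and prolyl activities in 1 protein, by Gars, the glycyl enzyme, at 31.3 RPKM and by Nars, the asparaginyl enzyme, at 30.9 RPKM. The lowest cytosolic member was Cars, the cysteinyl enzyme, at 8.16 RPKM. Only 2 mitochondrial members other than Lars2 exceeded that level, Iars2 (isoleucine) at 13.8 RPKM and Fars2 (phenylalanine) at 8.70 RPKM. For the 13 amino acids with 1 gene in each class here, taking Eprs with Ears2, the cytosolic mean was the higher in 11, by ratios of 1.89 for Cars over Cars2 to 18.3 for Nars over Nars2. The exceptions were Lars with Lars2 and Iars with Iars2, whose ratio was 0.89. Phenylalanine, with 2 cytosolic genes, was not among the 13. Its cytosolic genes Farsa and Farsb were at 11.0 and 18.0 RPKM, beside 8.70 RPKM for Fars2. Neighbours in this order were often closer than their spread: Nars was at 22.4 to 34.5 RPKM in control adductor and 28.1 to 42.6 RPKM in control gastrocnemius, above Gars in the former and within the range of Gars in the latter.

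In control mice the sum of the 20 cytosolic members was 289 to 376 RPKM in adductor (median 324) and 366 to 514 RPKM in gastrocnemius (median 429). The sum of the 13 mitochondrial members without Lars2 was 48.7 to 66.0 RPKM (median 54.2) and 58.9 to 69.4 RPKM (median 67.9). On the scaled values the order turned: the cytosolic sum was 350 to 475 in adductor and 310 to 333 in gastrocnemius, and the mitochondrial sum 62.4 to 83.5 and 41.5 to 58.2. The cytosolic ranges of the muscles overlapped on RPKM and did not on scaled values, and the same held for the mitochondrial ranges.

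With RPKM as deposited, 12 of the 34 members were higher in the gastrocnemius of control mice and none lower (limma, adjusted p under 0.05), against 54.4% of all genes called higher and 8.7% called lower. The 12 were 10 cytosolic genes (Gars, Hars, Farsa, Tars, Rars, Sars, Cars, Qars, Aars and Kars) and 2 mitochondrial ones (Nars2 and Rars2). The median log2 difference was 0.38 for cytosolic and 0.22 for mitochondrial members, both below the 0.66 of all genes. On scaled values 1 member was called higher, Gars, and 19 lower, 11 cytosolic and 8 mitochondrial, against 28.3% and 26.5% of all genes; the medians were -0.40 and -0.48 beside -0.02 for all genes. The difference was above 0 on RPKM and below 0 on scaled values for 27 of the 34 members in control mice and for 22 in diabetic mice, and the reverse held for 0. Within the first set 18 members were called higher and 1 lower (59.3% and 4.8% of all genes), and within the second set 7 and 0 (51.3% and 12.2%). The 1 called lower in the first set was Lars2, described below, which was also among the 7 called higher in the second. The 2 sets gave cytosolic medians of 0.63 and 0.18 and mitochondrial medians of 0.38 and 0.12. Mitochondrial medians here and below include Lars2. With a term for the sets in the fit 21 were called higher and none lower (65.0% and 11.1% of all genes). Without control gastrocnemius 3, 14 members were called higher, and the share of all genes called in that fit is not given here.

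In diabetic mice 6 members were called higher, Gars, Hars, Farsa, Yars, Nars2 and Rars2, and none lower, against 48.1% and 8.83% of all genes. All but Yars, the tyrosyl enzyme, were also among the 12 of control mice. The median difference was 0.25 for cytosolic and 0.30 for mitochondrial members, again below the 0.55 of all genes. On scaled values none was called higher and 19 were called lower, 14 cytosolic and 5 mitochondrial, against 27.3% and 26.5% of all genes, and 16 of them were also called lower in control mice. A fit that pairs the libraries by number called 10 higher (56.7% of all genes) and 2 lower (11.9%), the latter Eprs and Mars. Within the first set 13 were called higher and 2 lower (57.3% and 7.48%), within the second 4 and 1 (35.2% and 13.1%). Lars2 was among the 2 called lower in the first set and the 4 called higher in the second. A term for the sets gave 12 higher and 4 lower (56.4% and 13.4%). The cytosolic medians of the sets were 0.40 and -0.07, the mitochondrial ones 0.39 and 0.01. The count of members called higher fell to 3 without diabetic adductor 3 and was 7 without diabetic gastrocnemius 2. As the share of all genes called in these fits is not given here, the counts are not read as a change of the members.

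**Figure D1:**
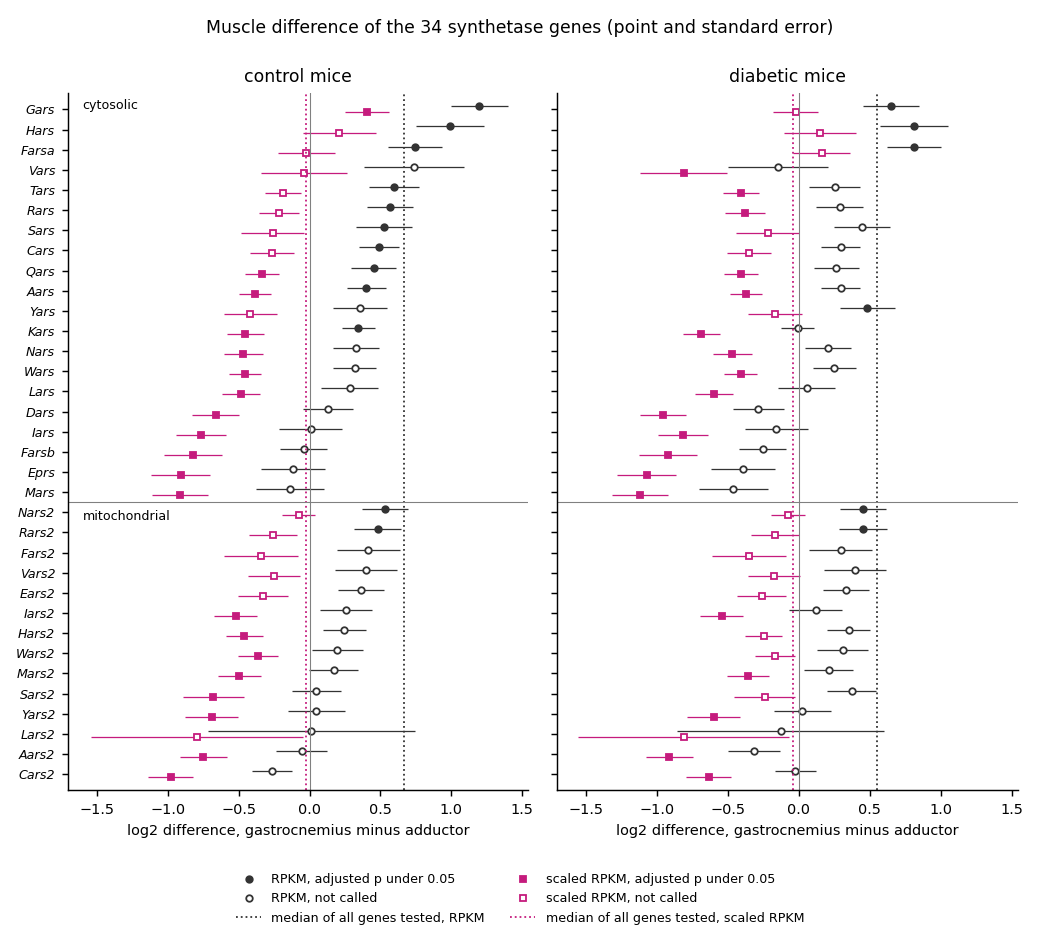
Log2 difference (gastrocnemius minus adductor) of each of the 34 members with its standard error, from RPKM (circles) and from scaled RPKM (squares), in control and diabetic mice; filled symbols have an adjusted p under 0.05 and dotted lines mark the median of all 12382 genes. Most members lie to the left of the dotted line of their scale, and on RPKM Gars, Hars and Farsa lie farthest to the right in both mouse groups.

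Gars led the members in control mice. Its level was 15.9, 19.7 and 21.3 RPKM (lowest, median and highest library) in control adductor and 26.7, 47.6 and 55.9 RPKM in control gastrocnemius. It was the only member whose 6 gastrocnemius values all lay above the 6 adductor values, which held for 33.3% of all genes tested. The log2 difference was 1.20 ± 0.20 (SE, adjusted p = 1.66e-05, limma) on RPKM and 0.41 ± 0.16 (adjusted p = 0.0331) on scaled values, and 1.30 and 1.10 within the 2 sets, both called. On scaled values the sets gave 0.41 (adjusted p = 0.145) and 0.40 (adjusted p = 0.0328). The adductor of diabetic mice had 16.8, 22.9 and 30.1 RPKM and their gastrocnemius 23.2, 40.6 and 47.9 RPKM, and the groups overlapped. No member separated the muscles of diabetic mice on RPKM in either direction, against 29.0% of all genes above and 2.33% below. There the difference was 0.65 ± 0.20 (adjusted p = 0.00711) on RPKM and -0.02 ± 0.16 (adjusted p = 0.918) on scaled values, and 0.78 (adjusted p = 0.0188) and 0.40 (adjusted p = 0.143) within the sets. As a share of all cytosolic synthetase RPKM, a measure that the scaling of a library leaves as it is, Gars took 5.52% to 6.18% in control adductor and 7.12% to 11.2% in control gastrocnemius. In diabetic mice it took 5.41% to 6.88% and 6.84% to 10.8%, and these ranges overlapped.

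Hars, the histidyl enzyme, was at 6.48, 11.3 and 14.8 RPKM in control adductor and 12.1, 23.2 and 26.2 RPKM in control gastrocnemius. All gastrocnemius libraries but control gastrocnemius 3 were above the highest adductor library. The log2 difference was 0.99 ± 0.24 (adjusted p = 0.00101) in control mice, with 1.11 and 0.87 in the sets, and 0.81 ± 0.24 (adjusted p = 0.00585) in diabetic mice, with 0.72 and 0.99, where adductor had 7.33, 10.9 and 16.6 RPKM and gastrocnemius 11.5, 20.2 and 27.9 RPKM. On scaled values it was 0.21 and 0.15, and neither was called. Hars and Hars2 lie 75 bases apart on opposite strands and share 165 words of 31 bases, so some reads may be counted for either; Hars2 itself was not called on RPKM (0.25 ± 0.15 in control mice).

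The phenylalanyl enzyme of the cytosol is built from the products of Farsa and Farsb, its alpha and beta subunits, and of the pair only Farsa was called on RPKM. Farsa was at 5.85, 8.92 and 10.1 RPKM in control adductor and 9.64, 15.1 and 16.4 RPKM in control gastrocnemius, where only control gastrocnemius 3 fell within the adductor range. Farsb was at 12.5, 18.3 and 24.8 RPKM and at 13.6, 17.6 and 20.3 RPKM, and the groups overlapped. It shares 8.46% of its 31-base words with other transcripts, most of them with Sgpp2. The log2 difference was 0.75 ± 0.19 (adjusted p = 0.00166) for Farsa and -0.04 ± 0.17 (adjusted p = 0.851) for Farsb, with 0.88 and 0.61 in the sets for Farsa and 0.16 and -0.24 for Farsb. In diabetic mice it was 0.81 ± 0.19 (adjusted p = 0.000884) and -0.26 ± 0.17 (adjusted p = 0.195), with 0.87 and 0.70 in the sets for Farsa and -0.30 and -0.17 for Farsb. On scaled values Farsa was not called (-0.02 in control, 0.16 in diabetic mice) while Farsb was lower (-0.82 and -0.92, both called). The ratio of Farsa to Farsb within a library, which was chosen after the values were seen and carries no test, was 0.395 to 0.568 in control adductor and 0.711 to 0.924 in control gastrocnemius, and 0.289 to 0.468 and 0.594 to 1.07 in diabetic mice. The ratios of the 2 muscles overlapped in neither mouse group nor in either set. Fars2, the single-chain mitochondrial enzyme, was at 4.06 to 10.4 RPKM in control adductor and 7.05 to 14.5 RPKM in control gastrocnemius; its difference of 0.41 ± 0.22 was called when libraries were paired by number (adjusted p = 0.0214) and not otherwise (adjusted p = 0.109).

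**Figure D2:**
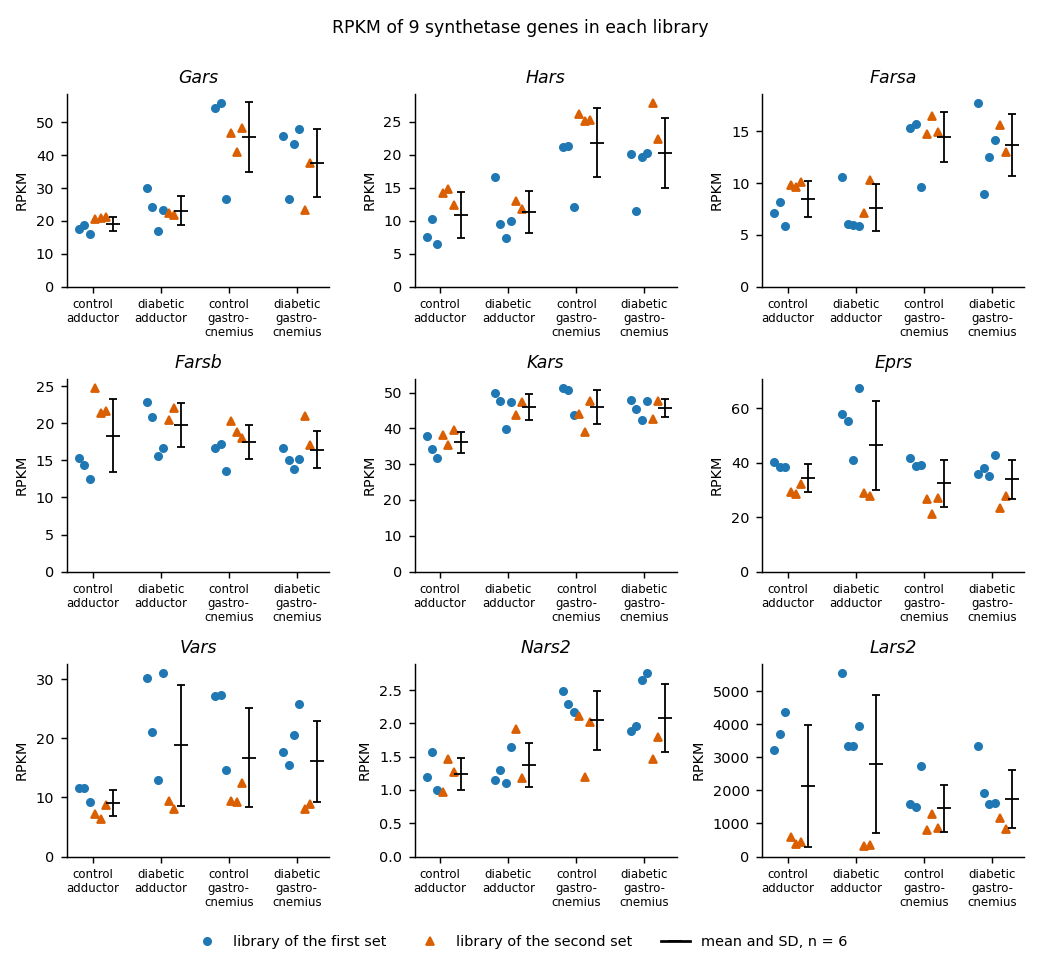
RPKM of 9 members in each of the 24 libraries by group, with the mean and SD of 6 libraries; circles and triangles are the first and second set. Gars, Hars and Farsa are higher in most gastrocnemius libraries, Farsb and Eprs are not, and Vars and Lars2 differ mainly between the sets.

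Of the other cytosolic enzymes outside the complex, Tars (threonine) was at 9.41, 11.0 and 14.7 RPKM in control adductor and 14.4, 17.2 and 22.3 RPKM in control gastrocnemius, a difference of 0.59 ± 0.18 (adjusted p = 0.00589; 0.87 and 0.32 in the sets). Sars (serine) was at 10.3, 14.7 and 20.4 RPKM and at 15.5, 21.7 and 24.2 RPKM, a difference of 0.52 ± 0.20 (adjusted p = 0.0240; 0.76 and 0.29 in the sets). Its call was lost without any of control adductor 1, 2 and 3 or control gastrocnemius 4, with differences of 0.43 to 0.48. Cars, at 0.49 (0.73 and 0.25 in the sets), and Aars (alanine), at 0.40 (0.64 and 0.16), were the other 2 called in control mice. On scaled values these 4 differed by -0.18 (Tars), -0.26 (Sars), -0.27 (Cars) and -0.39 (Aars), and Aars was called lower. Of the 31-base words of Aars 14.4% are found in other transcripts, most of them in Exosc6, which lies 770 bases away on the same strand. In diabetic mice Tars (0.25), Sars (0.45), Cars (0.29) and Aars (0.29) were not called, and Yars was (0.48 ± 0.19, adjusted p = 0.0345), at 6.42, 7.62 and 12.8 RPKM in their adductor and at 10.2, 11.6 and 14.1 RPKM in their gastrocnemius; its difference was 0.78 in the first set and -0.11 in the second, and on scaled values it was -0.17 and not called. Sars was called in diabetic mice when libraries were paired by number (adjusted p = 0.00758). Of the 5 members with the motif printed above, Gars, Aars and Tars were called higher in control mice, Yars in diabetic mice, and Iars in neither, where 54.4% and 48.1% of all genes were called higher. On scaled values Gars was called higher in control mice, Aars and Iars lower in both mouse groups, Tars lower in diabetic mice, and Yars in neither. Nars, Wars (tryptophan) and Vars (valine) were not called on RPKM in either mouse group. Wars, which interferon gamma is known to induce, was at 8.88, 11.2 and 13.5 RPKM in control adductor and 11.7, 13.5 and 17.0 RPKM in control gastrocnemius (0.32 ± 0.15, adjusted p = 0.0680; 0.58 and 0.06 in the sets), and at 9.69, 11.5 and 14.3 RPKM and 10.5, 14.5 and 16.9 RPKM in diabetic mice (0.25; 0.51 and -0.27 in the sets); on scaled values it was lower in both (-0.46 and -0.41). Of 11 other genes of the interferon gamma response that were tested, 10 were higher in control gastrocnemius on RPKM and 8 on scaled values, against 54.4% and 28.3% of all genes.

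Among the 8 enzymes of the multi-synthetase complex 3 were called higher in control mice, Rars (arginine) at 0.57 ± 0.16, Qars (glutamine) at 0.45 ± 0.16 and Kars at 0.34 ± 0.12 (adjusted p = 0.00426, 0.0151 and 0.0128), with a median of 0.21 over the 8 and 0.51 over the other 12 cytosolic members, of which 7 were called. Of all genes 54.4% were called higher, with a median of 0.66. In diabetic mice none of the 8 was called (median -0.08), and 4 of the 12 others were (median 0.29), against 48.1% of all genes. On scaled values 7 of the 8 were lower in control mice and all 8 in diabetic mice, against 4 and 6 of the 12 others and 26.5% of all genes in each mouse group. Rars was at 10.9, 12.6 and 18.3 RPKM in control adductor and 16.4, 21.2 and 23.9 RPKM in control gastrocnemius, with differences of 0.78 and 0.36 in the sets. Qars was at 15.3, 17.2 and 21.4 RPKM and at 20.5, 22.8 and 30.6 RPKM, and counted on its longest transcript its difference of 0.40 was not called; the sets gave 0.56 and 0.35. Kars was at 31.6, 36.7 and 39.4 RPKM and at 39.0, 45.8 and 51.3 RPKM, with only the lowest gastrocnemius library inside the adductor range, and the sets gave 0.48 and 0.20.

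At the other end of the complex lay Mars (methionine) and Eprs. Eprs was at 28.4, 35.2 and 40.2 RPKM in control adductor and 21.1, 33.0 and 41.8 RPKM in control gastrocnemius, and at 27.6, 48.2 and 67.5 RPKM and 23.3, 35.6 and 42.8 RPKM in diabetic mice. Its difference was -0.11 ± 0.23 and -0.40 ± 0.23 in the 2 mouse groups on RPKM (adjusted p = 0.677 and 0.139) and -0.91 ± 0.21 and -1.07 ± 0.21 on scaled values (both called), and with libraries paired by number the diabetic value of -0.40 was called (adjusted p = 0.0114). Within the sets it differed by 0.03 and -0.26 in control and -0.52 and -0.15 in diabetic mice. Mars differed by -0.14 ± 0.24 and -0.46 ± 0.24 on RPKM, the latter called only when paired (adjusted p = 0.0211), and by -0.91 and -1.12 on scaled values, both called. Its RPKM differences within the sets were 0.16 and -0.44 in control and -0.24 and -0.91 in diabetic mice. Mars overlaps Ddit3 on the opposite strand, and no strand option is in the file header, so reads of the 2 genes where they overlap cannot be told apart. Iars (isoleucine) was at 8.45, 12.3 and 13.8 RPKM in control adductor and 7.11, 12.4 and 17.7 RPKM in control gastrocnemius, and differed by 0.01 ± 0.22 in control and -0.16 ± 0.22 in diabetic mice on RPKM. Gm4849 shares most of the 14.7% of its 31-base words that are found elsewhere. Dars (aspartate) differed by 0.13 ± 0.18 and -0.29 ± 0.18, and on scaled values both genes were lower in both mouse groups.

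Within a library the summed RPKM of the 8 complex enzymes over that of the 12 others was 0.979 ± 0.163 (SD, n = 6) in control adductor and 0.746 ± 0.132 in control gastrocnemius, and 1.07 ± 0.145 and 0.783 ± 0.111 in diabetic mice. The ranges of the muscles overlapped in both mouse groups over all libraries. This ratio also differed by set: in control mice it was 1.12 and 0.833 in the first set and 0.837 and 0.658 in the second, lower in gastrocnemius in both and without overlap. In diabetic mice the first set ran from 0.936 to 1.22 in adductor and from 0.725 to 0.989 in gastrocnemius, which overlap, and the second from 0.936 to 0.946 and from 0.672 to 0.728. Gars over Kars, the 2 genes that serve both compartments, was 0.459 to 0.588 in control adductor and 0.611 to 1.10 in control gastrocnemius, and 0.421 to 0.603 and 0.544 to 1.02 in diabetic mice, where the ranges overlapped. The cytosolic sum over the mitochondrial sum without Lars2 was 5.95 ± 0.297 in control adductor and 6.67 ± 0.791 in control gastrocnemius. It was 6.69 ± 1.02 in diabetic adductor and 6.11 ± 0.634 in diabetic gastrocnemius, and all 4 ranges overlapped. Gars and Kars were counted wholly in the cytosolic sum. On average they made up 5.85% and 11.1% of it in control adductor and 10.4% and 10.6% in control gastrocnemius. These ratios were chosen with the values known and are given without a test.

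**Figure D3:**
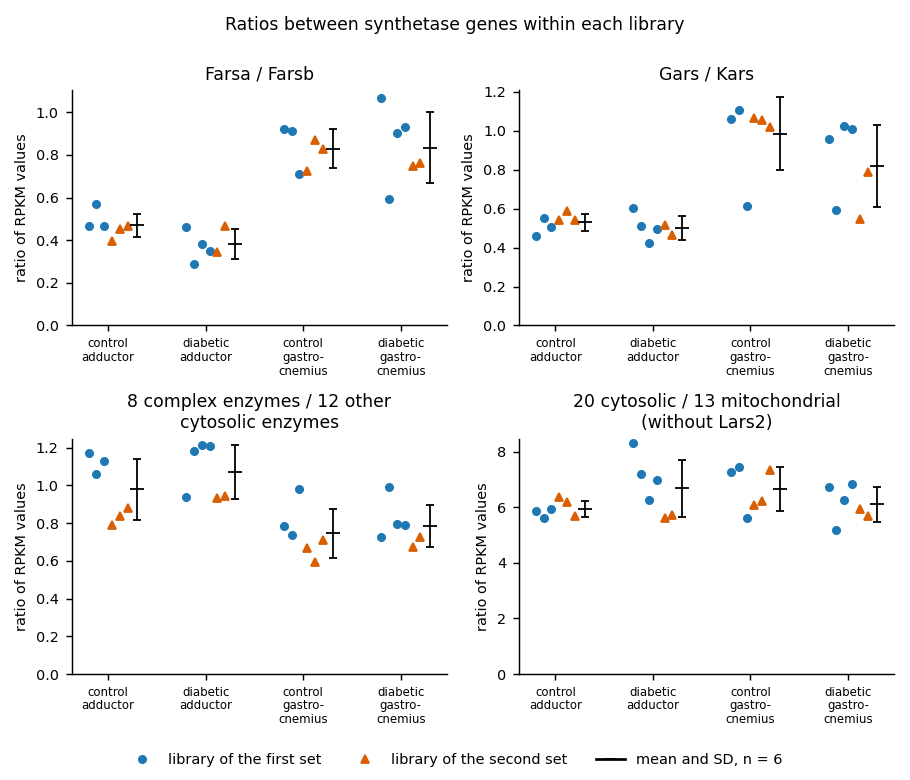
Ratios of RPKM between members within each library by group, with the mean and SD of 6 libraries; circles and triangles are the first and second set. Farsa over Farsb separates the muscles in both mouse groups, from 0.469 to 0.828 on average in control mice, while the cytosolic over the mitochondrial sum has group means of 5.95 to 6.69 and runs from 5.19 to 8.32 over the libraries.

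Among the 14 mitochondrial members only Nars2 and Rars2 were called on RPKM. Nars2 (asparagine) was at 0.973, 1.23 and 1.56 RPKM in control adductor and 1.19, 2.14 and 2.48 RPKM in control gastrocnemius, a difference of 0.53 ± 0.16 (adjusted p = 0.00701) with 0.69 and 0.38 in the sets; in diabetic mice it was 0.45 ± 0.16 (adjusted p = 0.0215) with 0.64 and 0.08. Rars2 (arginine) was at 3.83, 4.50 and 5.51 RPKM and at 4.37, 6.83 and 8.37 RPKM, a difference of 0.48 ± 0.17 (adjusted p = 0.0151) with 0.61 and 0.35 in the sets, and of 0.45 ± 0.17 (adjusted p = 0.0236) in diabetic mice with 0.46 and 0.44. The diabetic call was lost for Nars2 without diabetic adductor 3 or diabetic gastrocnemius 3 or 4 (differences down to 0.38), and for Rars2 without diabetic adductor 2, 3 or 4 or diabetic gastrocnemius 3 or 5 (down to 0.36). At such levels the pseudocount of 0.5 holds the fold change down. Ears2 (glutamate), which charges glutamate for both its own tRNA and the glutamine tRNA, was at 2.08, 2.70 and 4.24 RPKM in control adductor and 2.81, 3.73 and 4.48 RPKM in control gastrocnemius, and its difference of 0.36 ± 0.16 was called when libraries were paired (adjusted p = 0.0298) and not otherwise (adjusted p = 0.0559). Pairing also called Ears2, Sars2 and Vars2 higher in diabetic mice and Vars2 in control mice.

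On scaled values Cars2 (cysteine) differed most among the mitochondrial members of control mice, at -0.98 ± 0.16 (adjusted p = 1.83e-05), followed by Aars2 (alanine) at -0.75 ± 0.17 and Yars2 (tyrosine) at -0.69 ± 0.19, all called. Cars2 was at 3.80, 4.52 and 6.05 RPKM in control adductor and 2.73, 4.12 and 4.47 RPKM in control gastrocnemius, -0.26 ± 0.14 on RPKM (adjusted p = 0.112). Cars2 was 1 of 5 members, with Eprs, Lars, Qars and Wars, whose 6 scaled gastrocnemius values all lay below the 6 adductor values in control mice, which held for 14.3% of all genes. In diabetic mice 10 members did so, 9 of them cytosolic, against 12.9% of all genes. Members called lower on scaled values numbered 7 in the first set (23.4% of all genes) and 21 in the second (29.9%) for control mice, where the second set also called Gars higher (29.6%), and 20 (30.3%) and 14 (24.6%) for diabetic mice. Iars2 overlaps Rab3gap2 on the opposite strand and shares 23.6% of its 31-base words with other transcripts, almost all with that gene, so its values may hold reads of both.

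Lars2, the mitochondrial leucyl enzyme, was listed at levels beyond the range of every other member. It was at 382, 1903 and 4366 RPKM in control adductor, 789, 1383 and 2737 RPKM in control gastrocnemius, 307.5, 3342 and 5548 RPKM in diabetic adductor and 825, 1602 and 3330 RPKM in diabetic gastrocnemius. The level followed the sets: in adductor the mean was 3924 RPKM in the first set and 415 RPKM in the second, a ratio of 9.45. Within the first set gastrocnemius was lower (-1.01 in control and -0.97 in diabetic mice, adjusted p = 0.0455 and 0.0278), within the second it was higher (1.03 and 1.57, adjusted p = 0.0053 and 0.00293), and over all libraries the difference was 0.01 ± 0.73 and -0.13 ± 0.73. Rn45s, the ribosomal RNA precursor, was at 3657 to 19611 RPKM over the 24 libraries, and Lars2 was 18.9% to 32.8% of it in the libraries of the first set and 6.64% to 11.3% in those of the second. Lars2 shared 0.92% of its 31-base words with other annotated transcripts. Whether these reads came from the Lars2 messenger RNA was not tested, and the gene is left out of the mitochondrial sums.

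Diabetes changed none of the 34 members past the threshold. In adductor, gastrocnemius and the difference of the 2 effects 0 members were called, as were 0.0323%, 0.00808% and 0.0% of all genes (limma; also 0 members with voom on the recovered read counts). At an unadjusted p under 0.05 there were 2 members in adductor, 0 in gastrocnemius and 1 in the difference, against 2.74%, 1.26% and 1.24% of all genes. The median cytosolic difference was 0.12 in adductor and -0.08 in gastrocnemius, and the mitochondrial one 0.03 and 0.02, beside 0.04 and -0.06 for all genes. The difference was above 0 for 17 of 20 cytosolic members in adductor and for 4 of 20 in gastrocnemius, beside 57.0% and 36.7% of all genes. On scaled values it was above 0 for 13 and 8 of 20, beside 48.7% and 49.9% of all genes. Within the first and the second set the cytosolic medians on RPKM were 0.22 and 0.008 in adductor and -0.10 and -0.15 in gastrocnemius. Above 0 in both sets were 9 of 20 in adductor, and below 0 in both were 15 of 20 in gastrocnemius. On scaled values the set medians were 0.22 and -0.13 in adductor and -0.03 and 0.03 in gastrocnemius. The signs of all genes within the sets are not given here.

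The 2 members with the smallest p in adductor were Kars and Vars. Kars was at 31.6, 36.7 and 39.4 RPKM in control and 39.9, 47.3 and 49.8 RPKM in diabetic adductor. On RPKM the groups did not overlap, and how many of all genes separate these groups was not counted. The difference was 0.34 ± 0.12 (adjusted p = 1.0, limma), with 0.41 and 0.27 in the sets. In gastrocnemius it was -0.01 ± 0.12, and the effects differed by -0.35 ± 0.16, the 1 difference of effects with an unadjusted p under 0.05. On scaled values Kars overlapped between the adductor groups, at 38.0 to 53.2 in control and 51.8 to 64.0 in diabetic mice. There its adductor difference was 0.29 ± 0.13, and the effects differed by -0.23 ± 0.19 (unadjusted p = 0.226, limma).

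Vars was at 6.28, 9.02 and 11.6 RPKM in control and 8.07, 17.0 and 31.1 RPKM in diabetic adductor, and at 9.27, 13.6 and 27.3 RPKM and 8.11, 16.6 and 25.8 RPKM in gastrocnemius. The 3 high diabetic adductor libraries, at 30.2, 21.1 and 31.1 RPKM, were all of the first set, and all 10 libraries of the second set were at or below 12.5 RPKM. The adductor difference was 0.85 ± 0.35 (adjusted p = 1.0), with 1.03 in the first set and 0.23 in the second. Between muscles Vars differed by 0.73 ± 0.35 in control mice (adjusted p = 0.0736; 0.00132 with libraries paired) and -0.15 ± 0.35 in diabetic mice. Eprs (0.36 ± 0.23) and Yars (-0.31 ± 0.19) followed in adductor, and in gastrocnemius the smallest p belonged to Tars (-0.34 ± 0.18), Cars2 (0.21 ± 0.14), Gars (-0.29 ± 0.20) and Rars (-0.23 ± 0.16). The difference of effects was -0.55 ± 0.28 for Gars, -0.88 ± 0.50 for Vars and -0.41 ± 0.25 for Dars.

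**Figure D4:**
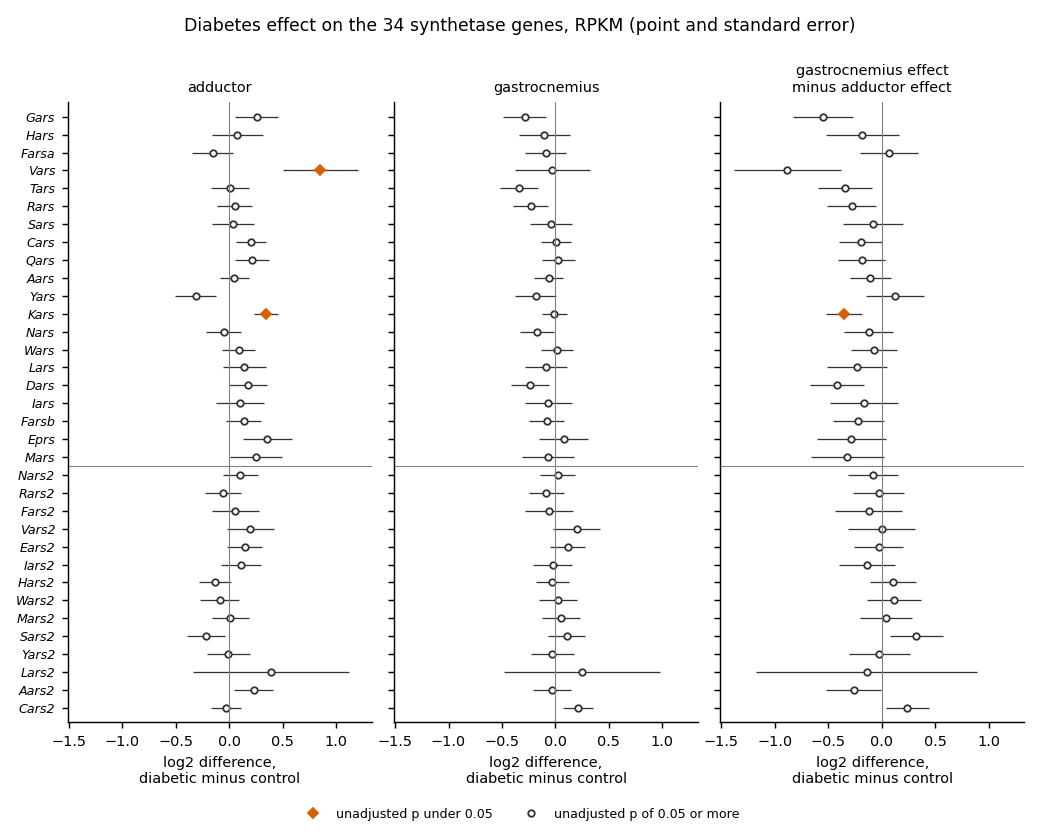
Log2 difference between diabetic and control mice for each of the 34 members, with its standard error, in adductor, in gastrocnemius and as the difference between the 2; diamonds have an unadjusted p under 0.05. Kars and Vars stand out in adductor, and no mitochondrial member (lower block) has a diamond; Lars2 has the widest error.

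Genes that work beside the synthetases were read from lists that had been put together with earlier results of these data known. The scaffold gene Aimp2 was lower in gastrocnemius, at 148.6 ± 66.0 RPKM (SD, n = 6) in control adductor and 43.0 ± 23.7 RPKM in control gastrocnemius. Its difference was -1.80 ± 0.42 (adjusted p = 0.000706, limma), while Aimp1 (-0.03) and Eef1e1 (0.36) were not called on RPKM. On scaled values 2 of the 3 scaffold genes were called lower in control mice and 1 in diabetic mice, against 26.5% of all genes in each. The scaled differences ran from -2.60 to -0.40 in control mice. Of further synthetase genes, Tarsl2, a second cytosolic threonyl enzyme, was lower at -1.17 ± 0.27 (adjusted p = 0.000755) and Tars2 (0.37) and Pars2 (0.42) were higher on RPKM but not on scaled values (-0.38 and -0.16, neither called). Tarsl2 and Tars thus differed in opposite directions on RPKM, Tarsl2 being at 19.5 and 9.12 RPKM on average and Tars at 11.6 and 17.7 RPKM. On scaled values Tarsl2 was lower as well, and Tars was not called.

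Of 6 cytosolic elongation factor genes, which encode the proteins that carry charged tRNA to the ribosome and move it along, 4 were higher and 1 lower in control mice on RPKM (median 0.70), against 54.4% and 8.7% of all genes, and 2 higher and 1 lower on scaled values (median -0.11). Eef1a1, the common form of the carrier, was at 140.0 and 1120 RPKM on average (3.18 ± 0.79), and Eef1a2, the form of adult muscle fibres, at 728 and 309 RPKM (-1.40 ± 0.37); both kept their direction and call on scaled values. Of 9 mitochondrial translation factor genes 1 was higher, Tsfm (0.71), and 2 were lower, Gfm2 (-0.95) and Mtrf1 (-0.77), with a median of -0.06, and on scaled values 7 were lower (26.5% of all genes). Of 29 ATF4 targets that are no synthetases 26 were tested, and 16 were higher and 2 lower in control mice, with a median of 0.98, and 12 and 3 with a median of 0.34 on scaled values. Of all genes 54.4% were called higher and 8.7% lower on RPKM, and 28.3% and 26.5% on scaled values. The highest were Slc7a5, an amino acid transporter (3.52 ± 0.34), Psat1 of serine synthesis (3.04 ± 0.34) and Asns (2.95 ± 0.25); Asns was at 0.779 ± 0.320 RPKM in control adductor and 9.79 ± 3.49 RPKM in control gastrocnemius. The lower ones were Chac1 (-3.17 ± 0.59) and Vldlr (-2.17 ± 0.38), and Atf4 itself differed by 0.18 ± 0.44 (adjusted p = 0.748). Ddit3, a partner factor of ATF4, was higher on RPKM (0.55 ± 0.21, adjusted p = 0.0237) and not on scaled values (-0.20), and Trib3 was below the minimum for testing. In diabetic mice the counts on RPKM were again 16 and 2, with a median of 1.08 (48.1% and 8.83% of all genes), and 11 and 2 on scaled values, with a median of 0.42 (27.3% and 26.5%). No list held a gene called for diabetes in either muscle. The 20 cytosolic synthetases lay between -0.14 and 1.20 in control mice.

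**Figure D5:**
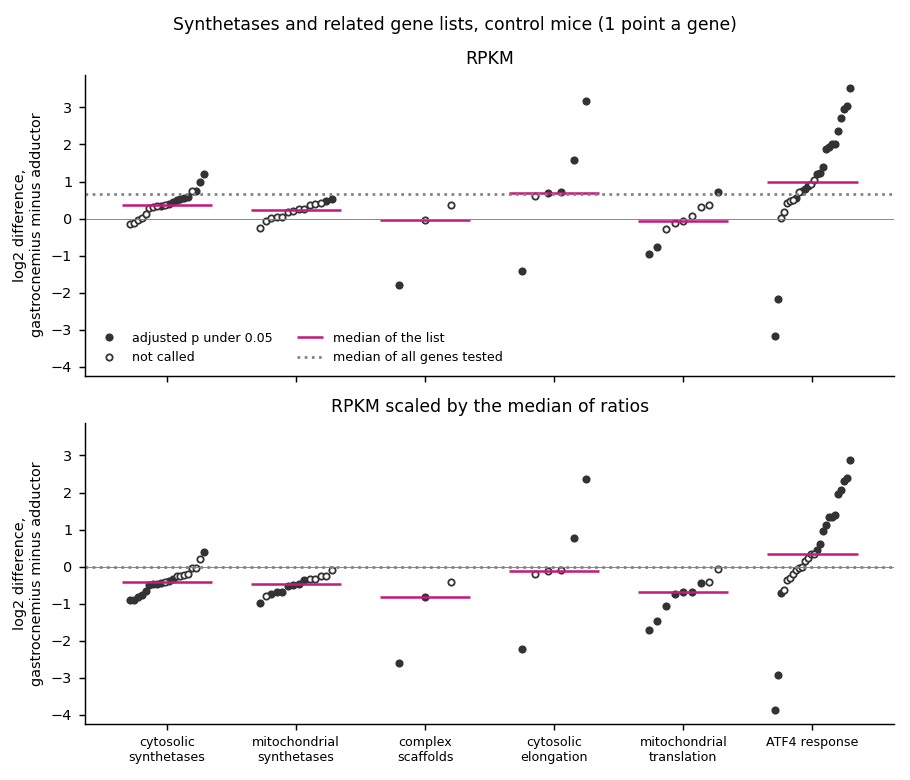
Log2 difference (gastrocnemius minus adductor, control mice) of each tested gene in the cytosolic and mitochondrial synthetase lists and 4 related lists, on RPKM (top) and scaled RPKM (bottom); filled points have an adjusted p under 0.05, bars mark list medians and the dotted line the median of all genes. The synthetase lists lie between -0.26 and 1.20 on RPKM, while ATF4 targets reach 3.52 and fall to -3.17.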

How the data were processed

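Poly(A) RNA of 24 muscle libraries was measured. The deposited table holds RPKM for 33022 transcripts of 24016 symbols, made by the authors with HOMER per the file headers. TopHat and build mm9 are named per the submitters' processing notes, with no versions. Header totals were 7.13 M to 15.6 M reads. With these totals 99.97% of values came out as whole reads (within 0.01), and voom on those reads, an alternative, called 6771 genes higher and 1068 lower between the muscles of control mice. Fits that joined scaling with a set, the set term or the block were added after the data were seen.

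The transcript with the highest mean RPKM stood for each symbol. Log2(RPKM + 0.5) was fitted with limma 3.58.1 in R 4.3.3, with an intensity trend and 4 group means, over the 12382 genes that reached an RPKM of 1 in 6 or more libraries. Fold changes are on that scale, which understates those of low genes. Calls used a Benjamini-Hochberg adjusted p under 0.05 over all tested genes. Scaled values were RPKM divided by median-of-ratios factors from 12754 genes above 0 in every library. The fit was tested on simulated data: of 100 genes changed by a log2 of 1 the control muscle comparison recovered 60, and of 100 changed by 2 it recovered 89. For diabetes the counts were 53 and 90 in adductor, 54 and 87 in gastrocnemius, and 27 and 76 for the difference of the effects. Only these genes were changed in each simulation, whereas 54.4% of all genes were called higher and 8.7% lower between the muscles of control mice. The simulated recovery therefore does not describe the muscle comparisons of the data. Noise was drawn independently for each gene and library, without the library sets. In the data only 0.0323% and 0.00808% of genes were called for diabetes in adductor and gastrocnemius, which makes the adjusted p a stricter cut there. The simulated recovery therefore does not say how many diabetes effects of these sizes would have been missed.

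Same-numbered libraries of the 2 muscles were correlated after subtracting group means (r of 0.254 to 0.736 over 12 pairs, -0.0901 to 0.627 within the library sets, own number best in 6 of 12). The labels do not say what a number stands for, and since every pair passed 0.1 the numbers were taken as pairs and a replicate block was fitted as an alternative. Other alternatives were scaling, pseudocounts, filters, the longest transcript, a term for the sets, each set alone and each library left out.

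The members and lists were chosen with earlier results of these data known. Values by group were given for the 6 cytosolic and 4 mitochondrial members with the largest control muscle difference among those called, or with the smallest p, for the 4 with the smallest p in each diabetes comparison, and for Wars, Iars, Kars, Gars, Qars and Ears2. Farsb, Mars, Lars2, Aars2, Yars2 and the ratios were singled out after their values were seen. Promoters came from RefSeq (GRCm38.p6), matched by gene ID, and mm9 positions of genes, used for overlaps, from the deposited table.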

Additional observations from a re-analysis of the deposited data

Results flagged for a closer look

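Among the members named with values by group, 4 values lay far from the other 5 of their group by Dixon's test. Chance alone passes that test in about 1 in 20 groups, and the search ran over the 4 groups of each of these members. Values like these can therefore arise by chance alone. Farsa was at 9.64 RPKM in control gastrocnemius 3, where the others were at 14.7 to 16.4. Hars was at 12.1 RPKM in the same library, where the others were at 21.2 to 26.2. That library also had the lowest macrophage marker sum of its group, 587 RPKM, and the part of this in the values was not tested. Ears2 was at 4.24 RPKM in control adductor 6, where the others were at 2.08 to 2.87, and that library had the highest regenerating muscle marker sum of its group, 711 RPKM. Nars2 was at 1.19 RPKM in control gastrocnemius 5, where the others were at 2.02 to 2.48.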

How the results depend on the processing

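Scaling had the largest effect, and by construction it takes out the shift of the median gene. With it the counts of members called higher and lower between muscles went from 12 and 0 to 1 and 19 in control mice and from 6 and 0 to 0 and 19 in diabetic mice. The medians went to -0.40 (cytosolic) and -0.48 (mitochondrial) in control and -0.41 and -0.31 in diabetic mice. The direction turned from higher to lower for 27 of the 34 members in control and 22 in diabetic mice. Among the muscle results recomputed under every alternative, some turned in this way and were called on at least 1 scale (scaled difference in brackets). In control mice they were Farsa (-0.024), Iars (-0.77), Kars (-0.45), Nars2 (-0.077), Qars (-0.34), Rars (-0.21), Rars2 (-0.26), Sars (-0.26), Tars (-0.18) and Wars (-0.46). In diabetic mice they were Gars (-0.022), Nars2 (-0.076), Qars (-0.41), Rars (-0.38), Rars2 (-0.17), Tars (-0.41) and Wars (-0.41). Other members that turned include Aars (-0.39) and Cars (-0.27) in control and Yars (-0.17) in diabetic mice. With a term for the library sets 21 members were called higher in control mice, and 12 higher and 4 lower in diabetic mice. The first set alone gave 1 lower in control mice, which was Lars2. It gave 13 higher and 2 lower in diabetic mice, Lars2 among the latter, and control medians of 0.63 and 0.38. The second set alone gave 7 higher in control mice, 1 lower in diabetic mice, diabetic medians of -0.074 and 0.014, and mitochondrial medians of -0.074 for diabetes in gastrocnemius and -0.21 for the difference of the diabetes effects; fewer libraries entered these fits, and the cause of the differences between sets was not tested. On scaled values the first set alone called 7 lower in control mice, an alternative chosen after the data were seen. The replicate block, which pairs libraries by number, gave 10 higher and 2 lower in diabetic mice and changed no other call than those printed with the results. Leaving out 1 library gave 3 to 9 higher and 0 to 1 lower in diabetic mice, with 3 without diabetic adductor 3 and 1 lower without diabetic adductor 6 or diabetic gastrocnemius 2. The share of all genes called in these leave-one-out fits is not given here. Pseudocounts of 0.1 and 1, no filter, a minimum RPKM of 2 and voom changed no call of the members described by group; voom also called Hars2 higher in diabetic mice, 7 in all, and the longest transcript lost 1, Qars. As to depth, the lowest read count of a member in a library was 24.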
